A study of Mus musculus with 7 samples.

Results

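Acute phase proteins are secreted proteins whose production rises sharply in inflammation, mostly in the liver but also in injured tissue. Interleukin 6, interleukin 1 and tumour necrosis factor induce them through the transcription factors STAT3, C/EBP and NF-kB. Alarmins are proteins that cells release when they are stressed or dying and that then act on receptors of innate immunity. The genes examined here are 9 mouse genes of these kinds: the acute phase genes Saa3, Serpina3n, Hp and Orm1, the innate defence genes Lcn2 and Ptx3, the galectin gene Lgals3, and the alarmin genes S100a8 and S100a9. They were taken by gene name from the array files, which gave 11 probes of the 56605 distinct non-control probes and 9 of 37325 gene names. Of the 9 genes, 8 had a probe well above background on at least 3 of the 7 arrays and were tested among 22976 genes, and Orm1 had none.

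The data are one-colour Agilent arrays of heart RNA from adult female mice. The wild type group holds 3 arrays, Wild Type_181, Wild Type_183 and Wild Type_189, with the source label heart NTg + Tamoxifen. The knockout group holds 4 arrays, Mutant_175, Mutant_182, Mutant_187 and Mutant_188, with the source label heart Tg + Tamoxifen and the genotype Brg1 and Brm knockout. Per the design text, the knockout mice lacked Brm throughout and lost Brg1 when tamoxifen switched on MHC Cre-ERT, a Cre recombinase under a cardiac myosin heavy chain promoter. Both groups received tamoxifen. The design text speaks of 4 samples on each side, and any beyond these 7 were not analysed here. Whether the wild type mice carried Brm or Cre beyond what their labels say, and how long after tamoxifen the hearts were taken, cannot be read from the labels or the design text. Cardiomyocytes stand in the labels as the cell type, but the protocol is one for tissue RNA, and all 12 listed markers of fibroblasts and all 8 of endothelial cells were well above background on all 7 arrays beside the 12 of cardiomyocytes. In such bulk RNA, more cells of a type and more RNA per cell cannot be told apart. Nothing in the labels beyond the numbers says that each array is a separate animal, so p-values measure the spread between these arrays.

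Signals are given as the processed intensity of a probe divided by the 75th percentile of its array, so a value of 1 equals that percentile. Values per array are listed in the order Wild Type_181, _183, _189 and Mutant_175, _182, _187, _188. Such values compare arrays for 1 probe and do not rank different genes. Log2 fold changes are knockout over wild type, from limma with Benjamini-Hochberg adjustment over all 22976 genes, and a gene is called at an adjusted p under 0.05. At this threshold 16.3% of all genes were called higher and 25.8% lower, and in 19.6% every knockout array lay above every wild type array. Smarca4, which encodes Brg1, was lower in knockout, at 32.8 to 34.7 on the wild type arrays and 5.87 to 14.9 on the knockout arrays (log2 difference -1.87, SE 0.29, adjusted p = 0.0021). Smarca2, which encodes Brm, was at 1.82 to 2.04 and 1.89 to 2.21 (0.08, SE 0.11, adjusted p = 0.59), and whether either probe lies in the deleted part is not known.

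Of the 8 genes tested, 6 were called higher in the knockout hearts (Saa3, Serpina3n, Lgals3, Ptx3, Hp and Lcn2) and 0 were called lower. The shares were 75% and 0%, against 16.3% and 25.8% of all genes. Saa3, well above background on 1 wild type and 4 knockout arrays, passed the filter through the group where it was higher. S100a8 and S100a9 were not called, and arrays of both genotypes overlapped. On all 6 called genes every knockout array lay above every wild type array, which held for 19.6% of all genes. The calls and this separation come from the same values. The log2 fold changes of these 6 ran from 1.42 for Lcn2 to 5.47 for Saa3, against a median of -0.12 over all genes. The genes and the lists below were chosen with earlier results of these data known, so such comparisons with all genes only describe. The size for Saa3 depends on the background treatment.

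**Figure D1:**
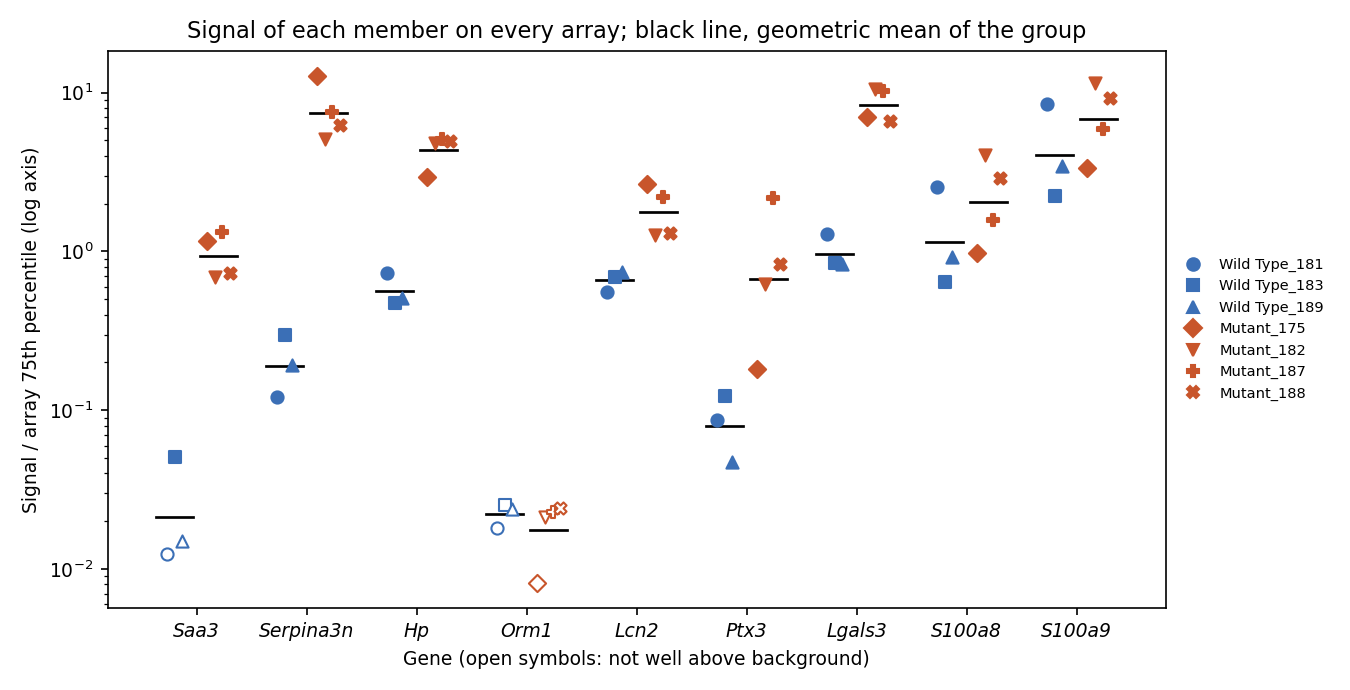
Signal of each of the 9 genes on every array, as processed intensity divided by the array's 75th percentile on a log axis, with blue symbols for the 3 wild type arrays, orange for the 4 knockout arrays, open symbols for spots not well above background, and a black line at each group's geometric mean. The groups stand apart for Saa3, Serpina3n, Hp, Lcn2, Ptx3 and Lgals3, whereas for S100a8 and S100a9 Wild Type_181 lies above 2 of the knockout arrays and Orm1 is open throughout.

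Saa3 encodes serum amyloid A3, an inflammation-induced apolipoprotein made mainly outside the liver. Its only probe, A_66_P106131, lies on the minus strand at chr7:53967559-53967618 of build mm9. The 60 bases are shown because serum amyloid genes are close copies of each other, so the probe's sequence is what tells which transcript was measured. No stretch of it is singled out, so it has no capitals.
Saa3 probe A_66_P106131: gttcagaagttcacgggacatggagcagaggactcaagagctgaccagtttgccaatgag
Saa3 was at 0.0124, 0.0508 and 0.0150 on the wild type arrays, and only Wild Type_183 was well above background. On the knockout arrays it was at 1.16, 0.692, 1.32 and 0.727. The wild type arrays thus held almost no signal, and the lowest knockout array stood 13.6-fold over the highest wild type array. The log2 means were -5.56 ± 1.10 (SD, n = 3) in wild type and -0.10 ± 0.47 (SD, n = 4) in knockout, a difference of 5.47 (SE 0.50, adjusted p = 0.00022, 95% interval 4.30 to 6.64). The size depends on how signal near background is treated: with a normexp background and quantile normalization it was 3.27, and without Wild Type_183 it was 6.10, and the call held at both. Of the near copies of Saa3, Saa1 was called higher by 0.94 (SE 0.13, adjusted p = 0.0014), Saa2 was not called at 0.16 (SE 0.26, adjusted p = 0.65), and the Saa4 probe was well above background on 0 arrays. These 3 were picked as relatives of Saa3, and cross-hybridisation between such similar transcripts was not tested.

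Serpina3n encodes a secreted inhibitor of serine proteases, the mouse relative of human alpha-1-antichymotrypsin. Its probe lies at chr12:105651918-105651977 of mm9. The gene was at 0.121, 0.298 and 0.193 on the wild type arrays. On the knockout arrays it was at 12.7, 5.11, 7.59 and 6.28. Every array was well above background and the groups stood far apart, the lowest knockout array 17.1-fold over the highest wild type array. The means of the log2 values were -2.39 ± 0.65 (SD, n = 3) and 2.90 ± 0.56 (SD, n = 4), a 39.1-fold difference (log2 5.29, SE 0.39, adjusted p = 8.9e-05, interval 4.39 to 6.19). Mutant_175 was the highest array and Mutant_182 the lowest of the knockouts. Of all genes 16.3% were called higher. Serpina3n belongs to a cluster of near-identical genes, and all 6 other members tested (Serpina3c, Serpina3f, Serpina3g, Serpina3h, Serpina3i and Serpina3m) were also called higher. Their log2 fold changes ran from 0.82 for Serpina3h to 3.07 for Serpina3i, the latter well above background on only 1 of 3 wild type arrays. Serpina3c, below that level throughout wild type, was at least 2.23-fold higher, and Serpina3k was well above background on 0 arrays. Cross-hybridisation within this family was not tested.

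Hp encodes haptoglobin, a plasma protein that binds free haemoglobin. Its probe lies on the minus strand at chr8:112099045-112099104 of mm9. Hp was at 0.729, 0.477 and 0.507 on the wild type arrays, and at 2.95, 4.81, 5.12 and 4.93 on the knockout arrays. The knockout arrays were all higher, and 3 of them lay close together with Mutant_175 below. The log2 means were -0.83 ± 0.33 (SD, n = 3) and 2.12 ± 0.38 (SD, n = 4), which is a 7.76-fold difference (log2 2.96, SE 0.24, adjusted p = 0.00014, interval 2.39 to 3.52). Cd163, the macrophage receptor that takes up haptoglobin bound to haemoglobin, was called higher by 0.82 (SE 0.13, adjusted p = 0.0022).

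Orm1 encodes orosomucoid 1, an acute phase glycoprotein of plasma made mostly by hepatocytes. Its probe crosses a splice junction, from 63007395 to 63009038 on chromosome 4 of mm9, and the file lists the transcripts of both Orm1 and Orm2 for it, so it cannot tell these apart. Its sequence is given because it was the only measurement of the gene.
Orm1 probe A_55_P2734867: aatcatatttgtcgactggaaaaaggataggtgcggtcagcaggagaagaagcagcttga
The spot was not well above background on any of the 7 arrays. Its values were 0.0181, 0.0255 and 0.0238 in wild type and 0.00823, 0.0212, 0.0230 and 0.0244 in knockout, which overlap and carry no fold change. The separate Orm2 probe was also well above background on 0 arrays, and Orm3 on 2. The acute phase genes that were measured therefore divide into Saa3, Serpina3n and Hp, which rose, and Orm1, which was not detectable in either group.

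Lcn2 encodes lipocalin 2, which binds bacterial siderophores and withholds iron, and which is also stored in neutrophil granules. The brighter of its 2 probes lies on the minus strand at chr2:32240199-32240258 of mm9. It read 0.559, 0.692 and 0.738 on the wild type arrays. On the knockout arrays it read 2.66, 1.26, 2.21 and 1.31. The groups were separate but closer than for the acute phase genes, with a gap of 1.71-fold between them. The log2 means were -0.60 ± 0.21 (SD, n = 3) and 0.82 ± 0.54 (SD, n = 4), a 2.68-fold difference (log2 1.42, SE 0.29, adjusted p = 0.0067, interval 0.75 to 2.10). The other probe, A_51_P510156, crosses a splice junction between 32241037 and 32241281 on the same chromosome, so that its bases come from spliced transcript.
Lcn2 probe A_51_P510156: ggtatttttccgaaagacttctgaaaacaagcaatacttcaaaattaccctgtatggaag
It differed by 1.53 on the log2 scale (SE 0.29, adjusted p = 0.0048 over all 34489 probes, of which 16.5% were called higher). Its order of arrays was close to that of the brighter probe, with Mutant_175 at 0.663 and Mutant_187 at 0.626 above Mutant_188 at 0.341 and Mutant_182 at 0.326. Slc22a17, a receptor for lipocalin 2, was called higher by 0.99 (SE 0.18, adjusted p = 0.0046), and Lrp2, the endocytic receptor megalin, was not called at 0.13 (SE 0.16, adjusted p = 0.53).

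Ptx3 encodes long pentraxin 3, a pattern recognition protein made locally by endothelial, stromal and myeloid cells. Its probe lies at chr3:66029245-66029304 of mm9. It was at 0.0873, 0.123 and 0.0474 on the wild type arrays and at 0.183, 0.623, 2.17 and 0.832 on the knockout arrays. All 4 knockout arrays were higher, but they spanned 11.9-fold, and Mutant_175 was only 1.49-fold over the highest wild type array. The log2 means were -3.65 ± 0.69 (SD, n = 3) and -0.57 ± 1.47 (SD, n = 4), a difference of 3.08 (SE 0.77, adjusted p = 0.016, interval 1.28 to 4.88). This was the highest adjusted p of the 6 calls. Without Wild Type_189, the lowest array, the difference was 2.70 and the adjusted p 0.060, and without Mutant_175 the difference was 3.71 (adjusted p = 0.0021). With a normexp background and quantile normalization it was 2.35 (adjusted p = 0.018). Tnfaip6, whose product binds pentraxin 3 in the matrix, was called higher by 2.31 (SE 0.36, adjusted p = 0.0020).

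Lgals3 encodes galectin 3, a lectin that binds beta-galactosides, is abundant in macrophages and is known in heart as a marker of fibrosis. Its brighter probe lies at chr14:48005414-48005473 of mm9, and it read 1.29, 0.844 and 0.833 on the wild type arrays. On the knockout arrays it read 7.05, 10.5, 10.2 and 6.62. The knockout arrays fell into a higher and a lower pair, and both pairs were above every wild type array. The log2 means were -0.05 ± 0.36 (SD, n = 3) and 3.07 ± 0.35 (SD, n = 4), an 8.69-fold difference (log2 3.12, SE 0.24, adjusted p = 0.00011, interval 2.56 to 3.68). The second probe, A_51_P101929, was spotted 10 times on each array and crosses splice junctions between 48004398 and 48005214, so its bases also come from spliced transcript.
Lgals3 probe A_51_P101929: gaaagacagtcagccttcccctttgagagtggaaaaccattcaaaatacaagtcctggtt
Its 10 spots agreed closely, with a coefficient of variation of 1.16% to 4.90% on an array, which is a technical spread within arrays. It gave 0.536, 0.347 and 0.364 in wild type and 2.68, 4.34, 3.61 and 2.65 in knockout. The log2 fold change was 2.99 (SE 0.24, adjusted p = 0.00012). Array by array, its log2 shifts from the wild type mean were 2.72, 3.41, 3.15 and 2.70 in knockout. The brighter probe stood slightly higher on each of these arrays, at 2.86, 3.44, 3.40 and 2.77.

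**Figure D2:**
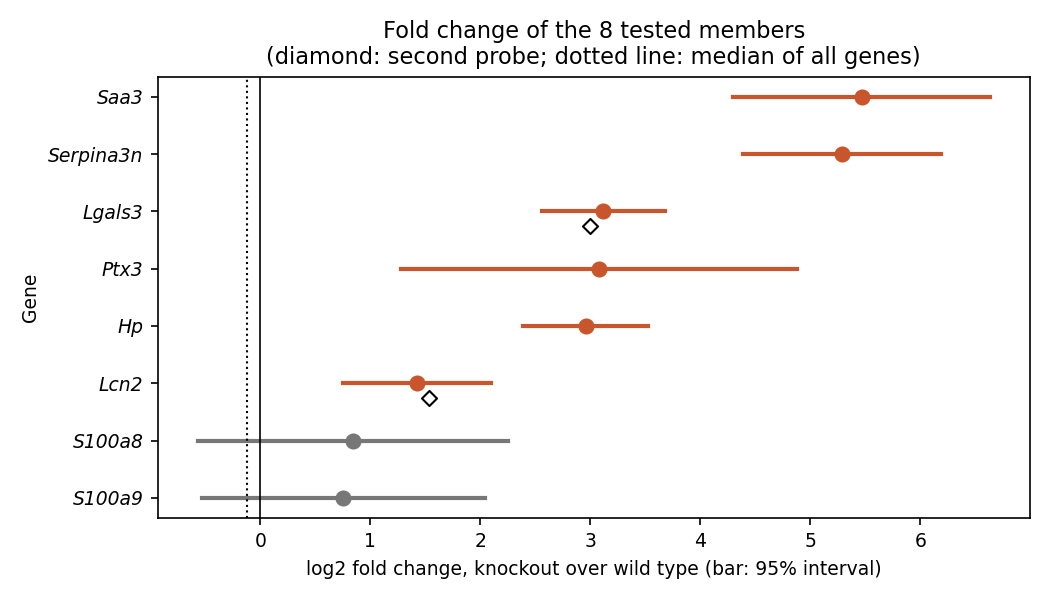
Log2 fold change of knockout over wild type for the 8 genes tested, with 95% intervals from limma, orange where called and grey where not, open diamonds for the second probes of Lgals3 and Lcn2, and a dotted line at the median of all genes, -0.12. The intervals of the 6 called genes lie above 0 and those of S100a8 and S100a9 reach below it.

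S100a8 and S100a9 encode calcium-binding proteins that pair as calprotectin, which makes up much of the cytosol of neutrophils and also occurs in monocytes. The S100a8 probe, A_51_P256827, lies at chr3:90473778-90473837 and the S100a9 probe on the minus strand at chr3:90496573-90496632 of mm9. The sequence of the S100a8 probe is shown because the result on this pair turns on single arrays, and because both genes belong to a large family of related small proteins.
S100a8 probe A_51_P256827: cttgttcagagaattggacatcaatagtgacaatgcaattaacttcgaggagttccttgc
S100a8 was at 2.54, 0.646 and 0.928 on the wild type arrays, and at 0.978, 4.04, 1.57 and 2.90 on the knockout arrays. S100a9 was at 8.49, 2.23 and 3.46 in wild type and at 3.38, 11.5, 5.88 and 9.30 in knockout. For both genes Wild Type_181 stood above Mutant_175 and Mutant_187, so the groups overlapped. It was 3.28-fold over the geometric mean of the other wild type arrays for S100a8 and 3.05-fold for S100a9, while Mutant_175 was at 0.370 and 0.394 of the geometric mean of the other knockout arrays.

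The wild type arrays spread over 3.93-fold for S100a8, close to the 4.13-fold spread of the knockout arrays. The log2 means of S100a8 were 0.20 ± 1.02 (SD, n = 3) and 1.04 ± 0.91 (SD, n = 4), a difference of 0.84 (SE 0.61, adjusted p = 0.30, interval -0.57 to 2.25). For S100a9 they were 2.01 ± 0.98 (SD, n = 3) and 2.76 ± 0.79 (SD, n = 4), a difference of 0.75 (SE 0.55, adjusted p = 0.30, interval -0.53 to 2.04). These intervals hold both no change and a rise of over 4-fold, so the arrays do not settle whether the pair changed. Without Wild Type_181 the differences were 1.41 (adjusted p = 0.099) and 1.29 (adjusted p = 0.093). Without Mutant_175 they were 1.20 (adjusted p = 0.12) and 1.09 (adjusted p = 0.12), and without Wild Type_183 they were 0.43 and 0.33. Neither gene was called with any single array left out.

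The pair moved together from array to array. Measured as the shift from the wild type mean, S100a8 and S100a9 differed by at most 0.29 on the log2 scale, on Mutant_182. Of 14107 genes well above background on all arrays, S100a9 was the one whose deviations from its group means were most like those of S100a8 (r = 0.993 over the 7 arrays), followed by Rgs18, a regulator of G protein signalling in blood cells (r = 0.986). The 6 called genes stood in different relations to this order. Serpina3n ran against it, with r = -0.968 to S100a8 and -0.985 to S100a9, and Lcn2 likewise with -0.869 to S100a8. Both were highest on Mutant_175, where the S100 pair was lowest of the knockouts. Hp had r = 0.864 to S100a9. Saa3 was closer to Serpina3n (r = 0.801). But Saa3 was well above background on only 1 of the 3 wild type arrays, so its r values rest in part on signal near background. These values describe 7 arrays with group means removed, share each array's scaling, and have no test.

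Among the genes most like the others by the same measure, Hp was followed by Postn, a matrix gene of activated fibroblasts (r = 0.995), and by Slc22a17 (r = 0.985). Lcn2 was followed by Rdx and Kcns1, Saa3 by Ddhd2 and Raly, and Lgals3 by Pole3 and Myl7. For Saa3 the order again rests in part on wild type signal near background. Ptx3 was followed by H3c4 and Slc25a45, S100a9 after S100a8 by Armh3, and Serpina3n by Cldn34c1 and Gpatch11. All these r lay between 0.970 and 0.998, and with 7 arrays and so many genes to choose from they are no more than a description.

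Because S100a8, S100a9 and Lcn2 are also products of neutrophils, markers of that cell were set beside them. Of 17 listed neutrophil markers 14 were tested, and 4 were called higher (Fpr1, Trem1, Mmp8 and Padi4) and 2 lower (Mmp9 and Csf3r). The shares were 28.6% higher and 14.3% lower, against 16.3% and 25.8% of all genes. Fpr1 and Ctsg, well above background on 0 wild type arrays, passed the filter through the knockout arrays. Fpr1 counts among the genes called higher, so the filter favoured that count. Fpr1, a receptor for bacterial peptides, was not well above background in wild type and was at least 2.46-fold higher at the main settings. Across the alternative scalings and the normexp background its fitted log2 difference was as low as 0.57. Trem1, an activating receptor of myeloid cells, was higher by 0.75 (SE 0.14, adjusted p = 0.0043). Mmp9, a gelatinase, was lower by 1.65 on the log2 scale (log2 fold change -1.65, SE 0.53, adjusted p = 0.041), but not called with spike-in scaling (-1.09, adjusted p = 0.13). Across the scalings and the normexp background its difference was as small as -0.73. Csf3r, the receptor for granulocyte colony-stimulating factor, was called lower at -0.44, which turned to 0.12 with spike-in scaling. The median shift of the list from its wild type mean was 0.22, -0.23 and -0.12 on the wild type arrays. On the knockout arrays it was 0.05, 1.04, 1.21 and 1.03. The median of 0.05 on Mutant_175 averages markers that went both ways, since 6 of the 14 lay above all wild type arrays there, 6 below all of them and 2 within their range. Without Mutant_175, 9 of the 14 were called higher, and 0 were called lower without Wild Type_183, Wild Type_189 or Mutant_188. Prtn3 was well above background on 0 arrays, Cd177 on 1 and Cxcr2 on 2, while Ly6g, a surface antigen of mouse neutrophils, was well above background on all 7 and not called at 0.01 (SE 0.11, adjusted p = 0.97).

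The granule genes Camp, Ltf and Ngp, picked after their values were seen because they varied most like the S100 pair, do not stand for all granule genes. Elane and Mpo, which encode granule enzymes, had r = -0.408 and 0.296 with S100a8, and Wild Type_181 was at 0.848 and 0.864 of the geometric mean of the other wild type arrays for them. Retnlg had r = 0.523, with Mutant_175 at 1.04-fold of the other knockout arrays. Camp, which encodes an antimicrobial peptide, was at 0.240, 0.106 and 0.1002 in wild type and at 0.0827, 1.20, 0.380 and 0.655 in knockout. Ltf, which encodes lactoferrin, was at 0.109, 0.0366 and 0.0340 and at 0.0250, 0.651, 0.158 and 0.226. Both were highest among the wild types on Wild Type_181 and lowest of all arrays on Mutant_175, where Ltf was not well above background. Ngp was well above background on 1 wild type and 3 knockout arrays. Wild Type_181 was 2.33-fold over the geometric mean of the other wild type arrays for Camp, 3.09-fold for Ltf and 3.28-fold for Ngp. None of the 3 was called (adjusted p = 0.18, 0.24 and 0.10), and their r with S100a8 over the 7 arrays was 0.884, 0.888 and 0.913. Lcn2 had its lowest wild type value on Wild Type_181 and its highest value on Mutant_175, the opposite order. The part of neutrophil RNA in the S100a8 and S100a9 values was not tested.

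**Figure D3:**
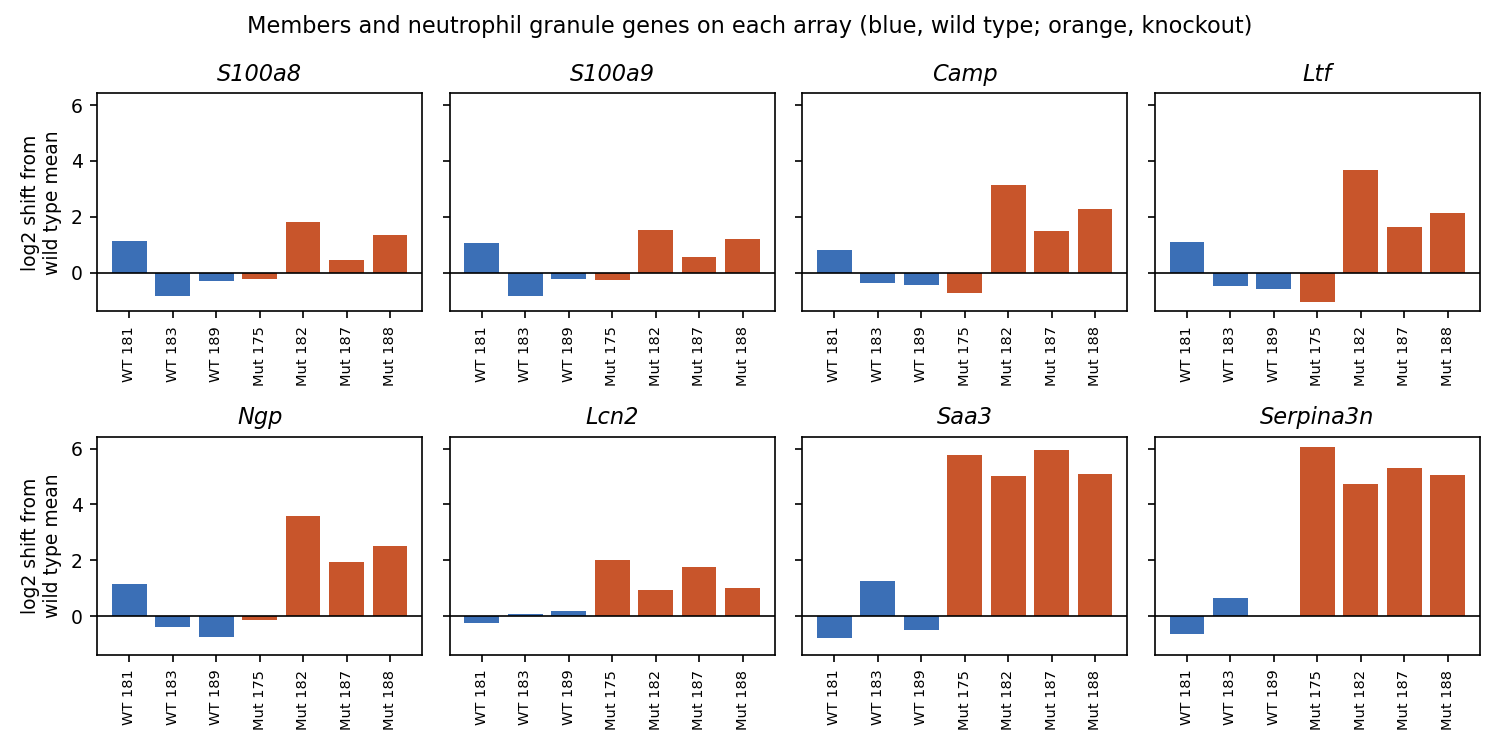
Log2 shift from the wild type mean on each array for S100a8, S100a9, the granule genes Camp, Ltf and Ngp, and for Lcn2, Saa3 and Serpina3n, with blue bars for wild type and orange bars for knockout. The upper row and Ngp share a raised Wild Type_181 and a Mutant_175 below the wild type mean, which Lcn2, Saa3 and Serpina3n do not.

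Other acute phase genes were listed to set the 9 in their family. Of 34 listed, 24 were tested, 16 were called higher and 1 lower. These are 66.7% and 4.17% of those tested, against 16.3% and 25.8% of all genes. The median log2 fold change was 1.62, or 1.28 with the 3 genes not measurable in wild type taken at their lower bounds, against -0.12 over all genes. Those 3 (A2m, Serpina3c and Il1rn), and Serpina3i with 1 wild type array well above background, passed the filter through the knockout arrays. All of them count among the genes called higher, so the filter favoured that count. Itih3, a plasma protein that stabilises hyaluronan matrix, rose from 0.0505 to 0.0619 in wild type to 0.289 to 0.431 in knockout (log2 2.65, SE 0.16, adjusted p = 4.5e-05). Lbp, which hands bacterial lipopolysaccharide to CD14, rose from 0.906 to 1.18 up to 2.46 to 3.31 (1.51, SE 0.15, adjusted p = 0.00032). Il1rn, the interleukin 1 receptor antagonist, was not well above background in wild type and was at least 6.44-fold higher at the main settings. Across the alternative scalings and the normexp background its fitted log2 difference was as low as 1.79, below that bound. Serpina1b, an antitrypsin gene of a near-identical family, was the one called lower, at -0.79 (SE 0.24, adjusted p = 0.034), and this call was lost without any one of 6 of the arrays. Of the classical liver products, Fga, Fgb and Fgg, the fibrinogen chains, were well above background on 0 arrays, as was Saa4, and Crp, Apcs and Hpx on 1 each. Others of the list, among them C3, Cp, Itih4, Lbp, Serpina1a and Serping1, were well above background on all 7 arrays.

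The other alarmins, S100 proteins and galectins were more divided. Of 19 tested, 8 were called higher and 2 lower, with a median of 0.67. These are 42.1% and 10.5%, against 16.3% and 25.8% of all genes. S100a4, a calcium-binding protein of fibroblasts and leukocytes, was at 3.45 to 5.28 in wild type and at 6.42, 37.7, 41.3 and 25.3 on the knockout arrays (log2 2.46, SE 0.62, adjusted p = 0.016). Mutant_175 again lay nearest to the wild type arrays. S100a13 was higher by 1.12 (SE 0.13, adjusted p = 0.00049), Anxa1, an anti-inflammatory annexin, by 1.60 (SE 0.11, adjusted p = 7.4e-05) and Anxa2, which binds S100 proteins, by 1.36 (SE 0.22, adjusted p = 0.0024). Lgals4, a galectin of epithelium, was lower (log2 fold change -1.64, SE 0.29, adjusted p = 0.0038), opposite to Lgals3.

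Upstream signals of the acute phase response were mixed. Of 19 inducing cytokines and receptors tested, 10 were called higher and 3 lower. These are 52.6% and 15.8%, against 16.3% and 25.8% of all genes. Il6 was at 0.0164, 0.0442 and 0.00504 in wild type, with 1 of 3 arrays well above background. All 4 knockout arrays were, so Il6 passed the filter through the knockout arrays. On the knockout arrays it was at 0.0736, 0.583, 0.504 and 1.02 (log2 4.64, SE 1.01, adjusted p = 0.0090). The size was as low as 2.28 across the alternative scalings and the normexp background, and the call held under each. The receptors for tumour necrosis factor Tnfrsf1a and Tnfrsf1b were higher by 0.94 (SE 0.12, adjusted p = 0.0010) and 1.78 (SE 0.19, adjusted p = 0.00039). Il22ra1, a receptor chain for interleukin 22, was lower (-3.32, SE 0.42, adjusted p = 0.00086). The receptors of the interleukin 6 family on the list, picked here for their role after their values were seen, went different ways. Osmr was higher by 1.07 and Il6ra by 0.80, and Il11ra1 was not called at 0.00 (SE 0.12). Lifr was called lower at -1.24 (SE 0.29, adjusted p = 0.012) and Il6st, the shared signalling chain, at -0.59, and both calls were lost with spike-in scaling, where they were at -0.68 and -0.02.

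Of 19 transcription factors and regulators of the response, 6 were called higher and 2 lower, with 10 higher when Mutant_175 was left out and 11 with spike-in scaling. At the main settings the shares were 31.6% and 10.5%, against 16.3% and 25.8% of all genes. With spike-in scaling 83.3% of the calls over all genes were higher, against 38.7% at the main scaling. Stat3 rose from 16.5, 21.1 and 20.0 in wild type to 28.2, 42.0, 44.7 and 37.4 in knockout (0.97, SE 0.19, adjusted p = 0.0051). Nfkbie, an inhibitor of NF-kB, rose by 1.63 (SE 0.22, adjusted p = 0.0011). Cebpb, one of the C/EBP factors of the acute phase response, was lower in knockout, at 37.3, 45.4 and 42.8 against 19.1, 18.6, 26.9 and 23.3 (-0.94, SE 0.16, adjusted p = 0.0035), and with spike-in scaling was not called at -0.38. Cebpd was not called at 0.27 (adjusted p = 0.19), and Socs3, a feedback inhibitor induced by STAT3, was not called at 1.54 (SE 0.55, adjusted p = 0.056).

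Receptors and partners of the 9 proteins were called higher in 10 of 19 cases and lower in 1. These are 52.6% and 5.26%, against 16.3% and 25.8% of all genes. With spike-in scaling the number called higher was 16. That last number stands beside 83.3% of all calls being higher under spike-in scaling, against 38.7% at the main scaling. Myd88, the adaptor of toll-like receptors, was higher by 1.29 (SE 0.19, adjusted p = 0.0016), and Mgat5, which builds the branched glycans that galectin 3 binds, was called lower at -0.74 (SE 0.23, adjusted p = 0.032), a call lost without any one of 4 of the arrays. The receptors through which the S100 pair acts, Tlr4 at 0.11 (adjusted p = 0.59) and Ager at 0.11 (adjusted p = 0.56), were not called.

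Sequences just upstream of the start sites were read from RefSeq promoter windows of 300 bases on build GRCm38.p6, 250 before and 50 after each start, which 7 of the 9 genes had. The windows were searched on both strands for TTGCNNAA (C/EBP), GGGNNTTCC (NF-kB) and TTCNNNGAA (STAT). They were also searched for the AP-1 site, spelled TGANTCA. The last pattern was the TATA box, spelled TATAAA. Only these spellings were searched. A site with other letters or another spacing, such as an NF-kB site of another length, was not counted. The C/EBP letters were in 4 of the 7 windows, those of Saa3, Lcn2, S100a9 and Ptx3, against 10.8% of all 32851 windows in the table. The NF-kB letters were in 1 (Ptx3, starting 2 bases into the transcript), against 5.82%. The STAT letters were in 0 against 8.30% and the AP-1 letters in 0 against 7.81%. TATAAA was in 2, against 13.6%, at 30 bases before the start of S100a8 and at the first transcribed base of S100a9. The stretches upstream of the start that hold a match are shown so that the differing letters and flanks can be compared, with the match in capitals (the C/EBP letters, or the TATA box for S100a8), 5′ to 3′ on the strand of the gene.
Saa3, chr7:46715742-46715801, minus strand, match starting at -99: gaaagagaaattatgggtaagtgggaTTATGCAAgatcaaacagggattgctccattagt
Lcn2, chr2:32387922-32387981, minus strand, match starting at -216: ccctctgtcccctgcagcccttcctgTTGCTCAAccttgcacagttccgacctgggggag
S100a9, chr3:90695912-90695971, minus strand, match starting at -236: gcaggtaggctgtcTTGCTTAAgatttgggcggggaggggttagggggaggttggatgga
Ptx3, chr3:66219804-66219863, plus strand, match starting at -57: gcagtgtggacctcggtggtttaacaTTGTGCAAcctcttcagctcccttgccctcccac
S100a8, chr3:90669013-90669070, plus strand, match starting at -30: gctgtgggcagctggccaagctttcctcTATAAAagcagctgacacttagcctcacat
The 4 C/EBP matches belong to 3 genes that were called higher and to S100a9, which was not. Serpina3n and Lgals3, called higher too, held none of the 5 patterns as spelled here in their windows, and other spellings were not searched. A match of letters is not a bound site, and binding was not measured here.

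Markers of other cell types differed between the groups beside these genes. Of 18 macrophage and monocyte markers 12 were called higher and 1 lower, with a median of 1.14 and per-array medians of 0.67 to 1.42 in knockout. The shares were 66.7% and 5.56%, against 16.3% and 25.8% of all genes. Leaving out 1 wild type array reduced the 12 to 7 (Wild Type_181 or Wild Type_183) or 6 (Wild Type_189). Ccr2, a receptor of recruited monocytes, was higher by 4.25 (SE 0.56, adjusted p = 0.00099), or by as little as 2.24 under another scaling, with 1 of 3 wild type arrays well above background. Mrc1 and C1qb, genes of resident macrophages, were higher by 1.41 and 1.16, and Ptprc was called lower at -0.44, not called without Wild Type_183, Wild Type_189 or Mutant_187, and stood at 0.13 with spike-in scaling. Of 12 fibroblast markers 9 (75%, against 16.3% of all genes) were called higher, among them Postn by 4.37 (SE 0.25, adjusted p = 3.6e-05), Mfap5 by 3.07 and Col1a2 by 2.81. Of 12 cardiomyocyte markers 10 (83.3%, against 25.8% of all genes) were called lower and Nkx2-5 higher at 0.45, a call lost without Wild Type_181 or Wild Type_183. Ckm, the muscle creatine kinase, was lower (-4.34, adjusted p = 1.7e-05), as were Mybpc3 (-2.47) and Tnnc1 (-2.01), sarcomere genes. With quantile or spike-in scaling 6 of the 12 were called lower.

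Of 9 hepatocyte markers tested 2 were called higher (22.2%, near the 16.3% of all genes), Ahsg by 1.997 (SE 0.44, adjusted p = 0.0096) and Ttr by 0.58. The list median was 0.06, and 1 marker was called without Wild Type_181, Wild Type_183 or Mutant_188. Of the 12 listed hepatocyte genes 7 were well above background on all 7 arrays (Apoa2, Apoh, Ttr, Ahsg, Serpina1c, Cyp2e1 and Tat), Apoa1 and F2 on 0 and Alb on 3. Adipocyte markers had a median of -0.20 with Lep alone called (lower, -0.45, but 0.11 with spike-in scaling), and 3 were called lower without Mutant_175. Endothelial markers had a median of -0.23, with Vwf higher by 1.14 and Tie1 (-0.54) and Tek (-0.38) called lower, though both were above 0 with spike-in scaling (0.03 and 0.18) and only 1 was called without any one wild type array or Mutant_182. Red blood cell markers had a median of -0.11, which was -0.51 without Mutant_175 and 0.42 without Mutant_187. The medians of these 3 lists were above 0 with spike-in scaling. At the main settings the macrophage and fibroblast markers were thus mostly higher in knockout, like the 6 called genes, and the cardiomyocyte markers mostly lower. The part of these lists in the results was not tested.

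**Figure D4:**
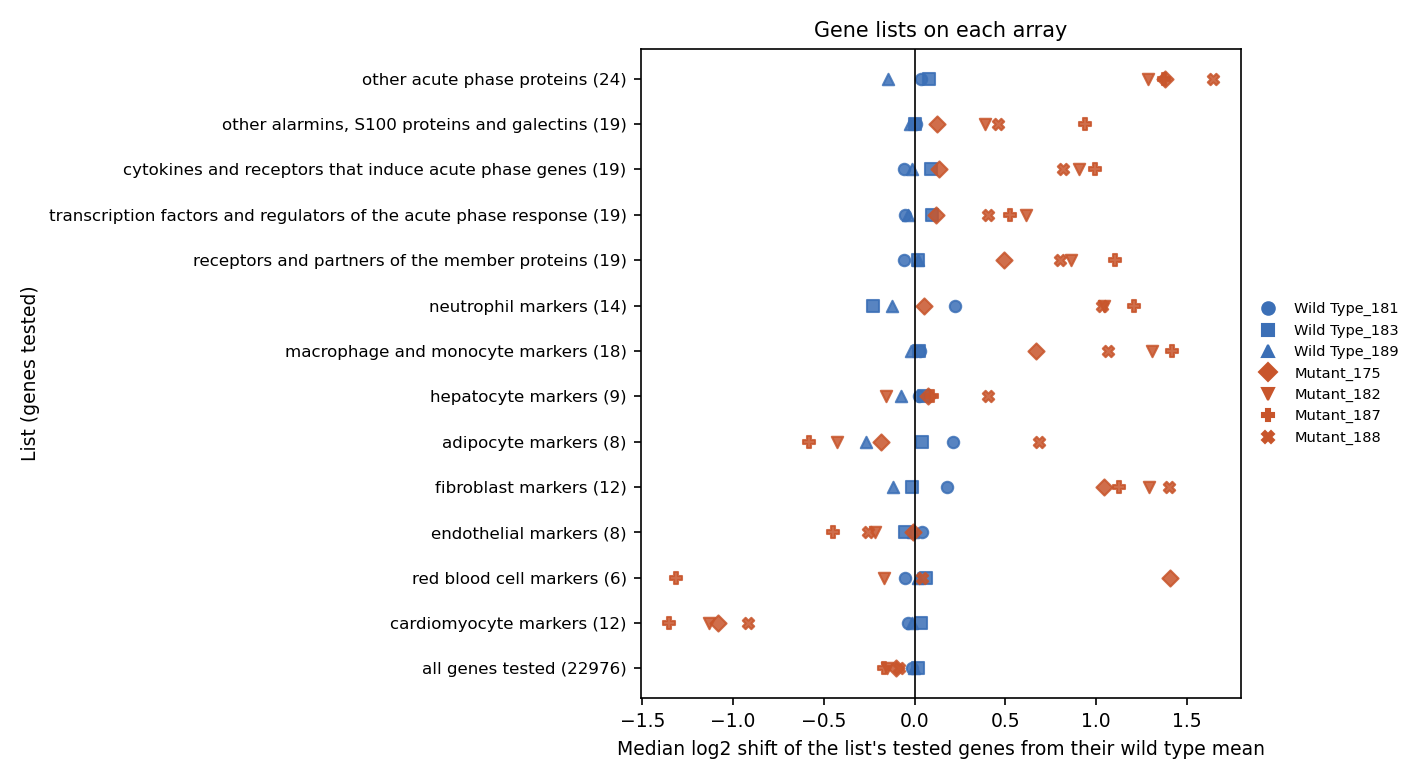
Median log2 shift from the wild type mean of the tested genes of each list, 1 symbol per array, with the number of genes tested in brackets. The other acute phase proteins stand at 1.29 to 1.65 on all 4 knockout arrays, while for neutrophil markers Mutant_175 stands at 0.05 and the other knockout arrays at 1.03 to 1.21.

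All directions are relative to the array's 75th percentile. Of all calls, 38.7% were higher at this scaling, 49.4% with the percentile taken only over probes detected on every array, and 83.3% with scaling to 7 spike-in probes, which moved the median of all genes from -0.12 to 0.44. The 8 genes tested stayed above 0 under each of these scalings, and S100a8 and S100a9 were called under none.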

How the data were processed

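Total RNA of 7 heart samples was extracted with a tissue kit, labelled with Cy3 and hybridised to SurePrint G3 mouse arrays, per the labels' protocols. Spot intensity is the processed signal of Feature Extraction 10.7.3.1, per the file headers, with probe positions on mm9. A value table that the authors deposited holds the same linear intensity (99.6% of values within 0.01 on the log2 scale) and served only as an alternative. Each array held 59305 non-control spots on 1 slide, 58.1% to 63.6% of them well above background, 82 to 146 outliers (left out) and 0 saturated. The number of arrays limits precision.

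Spots of a probe were averaged, log2 taken and the array's 75th percentile subtracted. Probes had to be well above background on 3 or more arrays (34489 were), and the brightest represented its gene. Probes were named by accession through RefSeq's table (32994 matched). Tests used limma 3.58.1 (lmFit, eBayes) in R 4.3.3, with Benjamini-Hochberg adjustment. Where no array of a group detected a probe, its fold is a lower bound, taken against the dimmest detected signal of each array or the probe's own signal, whichever was higher. No replicate number occurs in both groups, so no samples were paired. The members and lists were chosen with earlier results of these data known. Named genes were the 9 members, Smarca4, Smarca2, up to 3 called genes of each list by p with its largest rise and fall, and 2 genes most like each member. Others were picked after their values were seen. A gene this rule would name is not reported.

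Alternatives were quantile, median, well-above-background percentile and spike-in scaling, normexp (offset 50) with quantile normalization, the value table, 2 filters on dim probes, averaged probes per gene, a robust trended prior, weighted arrays and each array left out. On simulated data over 22941 genes with 200 changed, 48.4% of changes of 1 and 91.4% of changes of 3 (log2) were called, and 4.64% of calls fell on unchanged genes. The data had 3749 genes called higher and 5935 lower. The simulation held far fewer changes, independent noise and no shift across the array, so its rates need not hold for these data.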

Additional observations from a re-analysis of the deposited data

Results flagged for a closer look

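Within groups of 4 arrays, 24 sets of values (the members and the list medians) were examined for 1 array far from the rest, and 3 were found, all on Mutant_175. Chance gives about 1 in 20 for a single set. The sets share the same arrays and some vary together, so they are not independent and the 3 cannot be set against that rate. The log2 signal of Hp on Mutant_175 was 1.56, against 2.27 to 2.36 on the other knockout arrays. The median shift of the neutrophil markers on Mutant_175 was 0.049, against 1.03 to 1.21 on the others. The log2 signal of Orm1 on Mutant_175 was -6.92, against -5.56 to -5.36 on the others, all of them below the level called well above background. The wild type group of 3 is too small for this check, so the height of Wild Type_181 for S100a8 and S100a9 was not tested.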

How the results depend on the processing

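Across the alternatives (17 for Saa3, 18 for each other gene tested), Saa3, Serpina3n, Hp, Lcn2 and Lgals3 stayed called higher, S100a8 and S100a9 stayed uncalled and above 0, and Ptx3 lost its call once, without Wild Type_189. Log2 fold changes ranged from 3.27 to 6.10 for Saa3, 4.82 to 5.85 for Serpina3n, 3.01 to 3.68 for Lgals3, 2.35 to 3.71 for Ptx3, 2.82 to 3.52 for Hp, 1.13 to 1.99 for Lcn2, 0.43 to 1.41 for S100a8 and 0.33 to 1.32 for S100a9. The number called higher was 6 throughout except 5 without Wild Type_189 and 5 of 7 tested where every array had to be well above background, a filter that Saa3 did not pass, and 0 were called lower throughout. Over all genes, spike-in scaling called 8515 higher and 1707 lower in place of 3749 and 5935. Leaving out 1 array gave 2645 to 4529 higher and 4089 to 6777 lower. Neutrophil markers called higher went from 4 to 10 with spike-in scaling, 9 with array weights and 7 with no filter on dim probes. No paired analysis was possible because the groups share no replicate numbers. Orm1 was limited by signal over background.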
